A study of Mus musculus with 12 samples.

Results

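The genes described here were 9 transcripts of the Hippo pathway in mouse fibroblasts: the Yap target genes Ccn1, Ccn2, Ankrd1 and Axl, the targets that feed back on the pathway, Amotl2, Lats2 and Ajuba, and the transcription factors themselves, Yap1 and Tead1. They were chosen by name, not by a measured value, and were 9 of the 17419 genes in the table. Ccn1 and Ccn2 are the current symbols of Cyr61 and Ctgf. All 9 passed the filter on low counts. Cells of the immortalised mouse fibroblast line NIH-3T3, with the genotype given as WT, were exposed to 4-thiouridine (4sU), a uridine analogue that cells build into new RNA, at 800 µM for 15, 30, 60, 90 or 120 min, or received none (no4sU). RNA was measured by SLAM-seq, in which iodoacetamide makes the incorporated 4sU read as C, and these conversions give the new-to-total ratio (NTR), the fraction of a transcript's molecules made since labelling began. The 6 groups had 2 libraries each, A and B. The series asks how labelling time biases such measurements. The cells are a single line, and since nothing states that A and B came from separate cultures, p-values measure only the spread between these libraries, which may be technical.

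In the Hippo pathway, the kinases Stk3 and Stk4 act through Lats1 and Lats2 to phosphorylate Yap and its relative Taz, which keeps them out of the nucleus. Unphosphorylated Yap enters the nucleus and drives transcription with the Tead DNA-binding proteins. In fibroblasts, stretch, spreading on a stiff surface and serum activate Yap, and several of its targets encode proteins that restrain it, which makes a negative feedback loop. Nothing in these libraries measured Yap protein, its location or its binding to DNA.

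The DNA in front of listed starts of the genes was examined because Tead proteins recognise the core GGAATG. RefSeq promoters (GRCm38.p6) were matched for 7 of the 9 genes, and not for Ccn2 and Tead1. Within the 250 bases before the listed start, 6 of the 7 held the core on either strand, and Lats2, with 2 listed starts, did not. The bases searched for Lats2, Amotl2 and Ankrd1 lay inside the gene as annotated in GENCODE M21. For these 3 genes the DNA before the annotated 5′ end was thus not searched. The same letters were found in 12.6% of all 32851 promoters. The sequences below are shown 5′ to 3′ on the strand of the gene, with the core (GGAATG, or CATTCC where it lies on the other strand) in capitals. They show where the core stood in the genes whose RNA is described here, namely chr3:145650043-145650128 (minus) for Ccn1, chr7:25788921-25788983 (minus) for Axl, chr14:54577780-54577887 (minus) for Ajuba and chr9:8004692-8004777 (minus) for Yap1. For Ankrd1, at chr19:36120037-36120066 and chr19:36119950-36119979 (minus), and for Amotl2, at chr9:102717727-102717756 (plus), 30 bases around each core are shown, because an annotated exon of the same gene overlaps them.
Ccn1: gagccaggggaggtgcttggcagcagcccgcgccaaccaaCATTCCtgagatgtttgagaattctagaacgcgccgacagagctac
Axl: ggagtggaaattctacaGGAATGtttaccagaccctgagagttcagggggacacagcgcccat
Ankrd1, first core: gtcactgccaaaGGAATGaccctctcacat
Ankrd1, second core: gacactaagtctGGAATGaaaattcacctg
Amotl2: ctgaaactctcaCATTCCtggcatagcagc
Ajuba: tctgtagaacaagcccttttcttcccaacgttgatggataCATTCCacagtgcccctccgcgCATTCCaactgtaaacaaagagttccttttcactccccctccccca
Yap1: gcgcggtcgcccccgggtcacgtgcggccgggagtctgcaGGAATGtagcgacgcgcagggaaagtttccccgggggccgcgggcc

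The core began 103 bases before the start in Ccn1, 233 in Axl, 65 in Amotl2 and 141 in Yap1. Ajuba and Ankrd1 each held it at a pair of places, 186 and 164 bases before the start in Ajuba and 210 and 123 in Ankrd1. The AP-1 site TGANTCA, searched on both strands, was in 0 of the 7 and in 6.75% of all promoters, and the CArG box bound by serum response factor was in 0 of the 7 and in 1.47%. These are matches of letters, and no binding was measured.

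Between 9917026 and 13739380 reads were counted per library, and levels are given as CPM, counts scaled to a common library total, which are shares of a library. All 9 fibroblast markers examined, among them the collagens Col1a1 and Col1a2, were above 1 CPM, with a summed level of 16058 to 19631 CPM (mean 16109 CPM in no4sU and 19349 CPM at 120 min, whose part in the results was not tested). Of the epithelial markers 0 of 4 and of the muscle markers 0 of 3 reached 1 CPM (summed at most 0.582 and 0.301 CPM, with 2 of each listed at 0), against 1 of 3 endothelial (at most 1.70 CPM) and 2 of 3 immune markers (at most 21.8 CPM). The no4sU libraries differed from each other for several of the genes, and for those whose differences moved most with the choice of no4sU library, values without each one are given. In bulk RNA, fewer cells with a transcript and less of it per cell cannot be told apart.

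Levels of different genes were compared per kilobase of the deposited length, over all 12 libraries. Axl had a level of 460 CPM per kilobase, above 98.7% of the 9065 genes whose mean count was 100 or more. Ccn2 had 209 and Ccn1 160 CPM per kilobase, above 97.0% and 96.0% of genes. Amotl2 (73.1) and Ankrd1 (44.7) followed, and Yap1 (27.1), Tead1 (25.8), Ajuba (22.5) and Lats2 (17.6 CPM per kilobase) were the least abundant of the 9.

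Between 30 and 90 min of labelling the 9 transcripts fell into separate ranges of turnover. After 15 min the libraries of Yap1 overlapped those of Ajuba and Lats2. Ccn1, Ccn2 and Amotl2 were almost wholly replaced by new RNA within 90 min, and Ankrd1, Ajuba and Lats2 were at 91.4% or more new RNA at 120 min. Yap1 was near the median gene at all times from 30 min on, Tead1 was below it at 30 and 60 min and closer to it at 120 min, and Axl was among the slowest from 30 min on. Thus the targets were found at both ends of the scale.

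Ccn1 encodes a secreted matricellular protein that binds integrins. Its NTR was 14.4% and 10.6% in libraries A and B after 15 min, 50.1% and 50.4% after 30 min, 95.0% and 95.1% after 60 min, and 100% in both libraries after 90 and after 120 min. The pair at 30 min lay close to an even mix of old and new RNA. Ccn2 encodes connective tissue growth factor, a related matricellular protein. Its NTR was 12.5% and 8.37% after 15 min, 46.9% and 47.9% after 30 min, 84.8% and 86.3% after 60 min, 100% and 99.7% after 90 min, and 100% in both after 120 min. The Ccn2 libraries were below those of Ccn1 at 30 and 60 min without overlap, while at 15 min the genes overlapped. The deposited 90% intervals of these NTR values overlapped at 30 min and not at 60 min.

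Ankrd1 encodes an ankyrin repeat protein of the nucleus and of the muscle sarcomere. Its NTR was 5.25% and 5.99% after 15 min, 27.0% and 29.1% after 30 min, 59.0% and 54.9% after 60 min, 85.1% and 81.0% after 90 min, and 99.9% and 100% after 120 min. At each time before saturation it was thus below Ccn1 and Ccn2. Axl, a receptor tyrosine kinase for the ligand Gas6, had an NTR of 0.820% and 0.460% after 15 min, 1.65% and 1.48% after 30 min, 4.34% in both after 60 min, 7.57% and 6.73% after 90 min, and 10.8% in both after 120 min. No library of Axl overlapped one of the other 8 genes at any labelling time. Its 90% intervals overlapped those of Tead1, Yap1 and Ajuba at 15 min and those of Tead1 at 30 min.

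Among the feedback genes, Amotl2 encodes a member of the angiomotin family, which binds Yap and holds it in the cytoplasm. Its NTR was 9.34% and 6.36% after 15 min, 39.3% and 46.2% after 30 min, 84.3% and 89.8% after 60 min, 100% and 98.1% after 90 min, and 100% in both after 120 min. At 60 min it overlapped Ccn2. Ajuba encodes a LIM-domain protein that binds and restrains Lats kinases and so favours Yap. Its NTR was 2.85% and 1.61% after 15 min, 21.3% in both after 30 min, 61.2% and 65.0% after 60 min, 83.6% and 89.7% after 90 min, and 93.2% and 98.4% after 120 min. Lats2, a kinase that phosphorylates Yap, had an NTR of 2.85% and 2.05% after 15 min, 19.2% and 23.2% after 30 min, 53.3% and 57.9% after 60 min, 78.3% and 76.6% after 90 min, and 91.4% and 93.1% after 120 min. Lats2 overlapped Ajuba at 15 and 30 min, Yap1 at 15 min and Ankrd1 at 60 min. In GENCODE M21 it also overlaps the protein-coding gene Gm49361 on the same strand (mean count 612, against 1045 for Lats2), so its counts are uncertain where reads could belong to either.

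Yap1, the coactivator itself, had an NTR of 2.40% and 1.06% after 15 min, 5.89% and 6.52% after 30 min, 17.2% and 15.6% after 60 min, 29.3% and 21.4% after 90 min, and 39.1% and 34.7% after 120 min. Its DNA-binding partner Tead1 had 1.26% and 0.860% after 15 min, 3.89% and 2.60% after 30 min, 11.3% and 9.87% after 60 min, 22.2% and 19.5% after 90 min, and 31.4% and 33.6% after 120 min. Tead1 was below Yap1 without overlap of the libraries at 30, 60 and 120 min, and the libraries overlapped at 15 and 90 min. The deposited 90% intervals of the 2 genes were apart at 60 min alone. At 30 min Tead1 was above 26.4% of genes and at 60 min above 30.4%, and Yap1 above 57.9% and 53.0%. At 120 min, when the median gene was at 35.4%, Yap1 was above 52.3% and Tead1 above 45.8% of genes. At the same time Ccn1, Ccn2, Amotl2 and Ankrd1 were each above about 98.5%, Ajuba above 95.8%, Lats2 above 93.8% and Axl above 5.24% of genes.

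**Figure D1:**
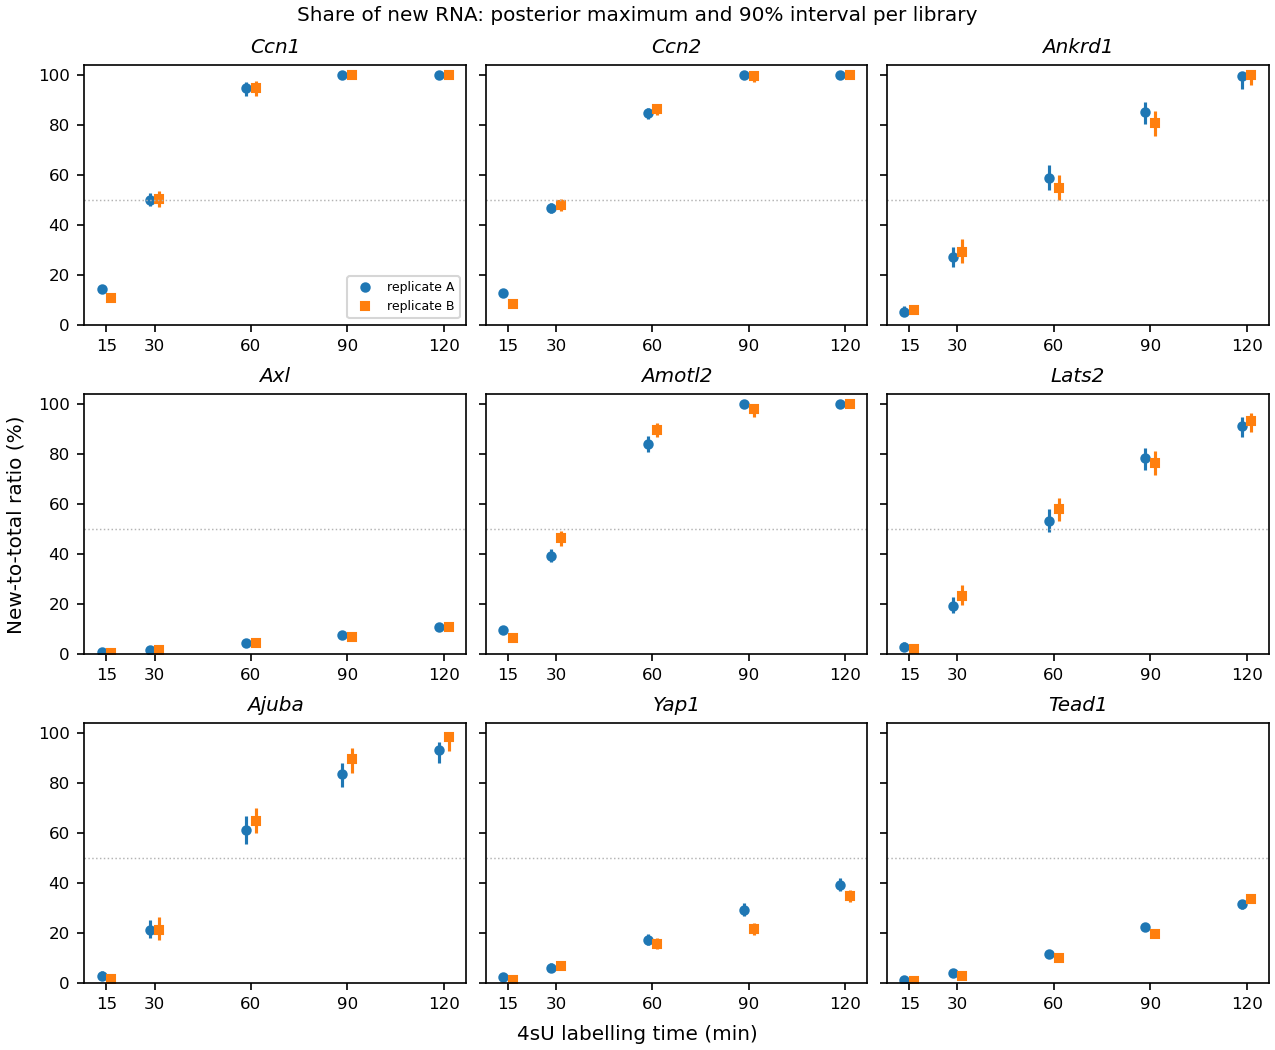
New-to-total ratio (%) against labelling time (min) for the 9 genes, with points for the posterior maximum in replicates A and B, bars for the deposited 90% interval, and a dotted line at an even mix. Ccn1 crossed that line at 30 min (50.1% and 50.4%), whereas Axl reached 10.8% at 120 min.

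Under constant RNA levels, the NTR gives an apparent half-life (the labelling time times ln 2, over -ln(1 - NTR)). At 60 min it was 13.8 min in A and 13.8 min in B for Ccn1, 22.1 and 20.9 min for Ccn2, and 22.5 and 18.2 min for Amotl2. It was 44.0 and 39.6 min for Ajuba, 46.7 and 52.3 min for Ankrd1, and 54.6 and 48.1 min for Lats2. Yap1 was at 220.5 and 245 min, Tead1 at 347 and 400.2 min, and Axl at 937 min in both libraries. These values depended on the labelling time in the genes of slow and of fast turnover. For Lats2 the apparent half-life was 359.6 and 502 min at 15 min of labelling, and 34.0 and 31.0 min at 120 min. For Axl it was 1249.8 and 1395 min at 30 min, and 728 and 731 min at 120 min. At NTR values above 0.99 no half-life was computed, which applied to Ccn1 from 90 min on.

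A measure without the assumption of constant levels is the fall of the old part, (1 - NTR) times CPM. For Ccn1 the old part was 339 and 317 CPM after 15 min, 181 and 161 CPM after 30 min, 15.9 and 13.8 CPM after 60 min, and 0 at 90 and 120 min. The new part of Ccn1 was 56.8 and 37.4 CPM after 15 min and 305 and 265 CPM after 60 min, and then 290.3 and 244 CPM after 120 min. Old and new RNA were thus about equal at 30 min, and the new part was no larger at 120 than at 60 min. Lats2 kept old RNA for longer, with 102 and 94.6 CPM after 15 min, 43.7 and 36.7 CPM after 60 min and 7.0 and 5.6 CPM after 120 min. Old Axl RNA was 1834 and 1911 CPM at 15 min and 1953 and 1838 CPM at 120 min, and the libraries of these times overlapped.

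A log-linear fit of the old part over the 6 libraries from 15 to 60 min gave a half-life of 9.82 min for Ccn1 (9.17 to 10.6 min at 1 SE of the slope), 14.1 min for Amotl2 and 15.1 min for Ccn2. It gave 25.7 min for Ajuba, 33.7 min for Ankrd1 and 34.3 min for Lats2, and 238 min for Yap1 (195 to 305 min) and 404 min for Tead1 (355 to 470 min). For the 6 fast genes each of these was shorter than the apparent half-life of either library at 60 min. A single rate did not describe Ccn1 or Amotl2, whose old part fell faster on the log scale after 30 min than before. Group means at 15, 30 and 60 min were 328, 171 and 14.8 CPM for Ccn1 and 331, 204 and 38.7 CPM for Amotl2. Those of Ccn2 (546, 295 and 70.3 CPM), Ajuba (87.1, 64.3 and 26.4 CPM) and Lats2 (98.4, 77.5 and 40.2 CPM) bent the same way, less strongly. Ankrd1 bent slightly the other way (94.0, 65.3 and 36.8 CPM). The fitted half-lives are thus averages over this span. The fitted rate of loss of Axl was -0.0186% per min ± 0.0417 (SE), so no half-life could be given. This measure was chosen after the data had been seen, and rests on CPM as a measure of amount.

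**Figure D2:**
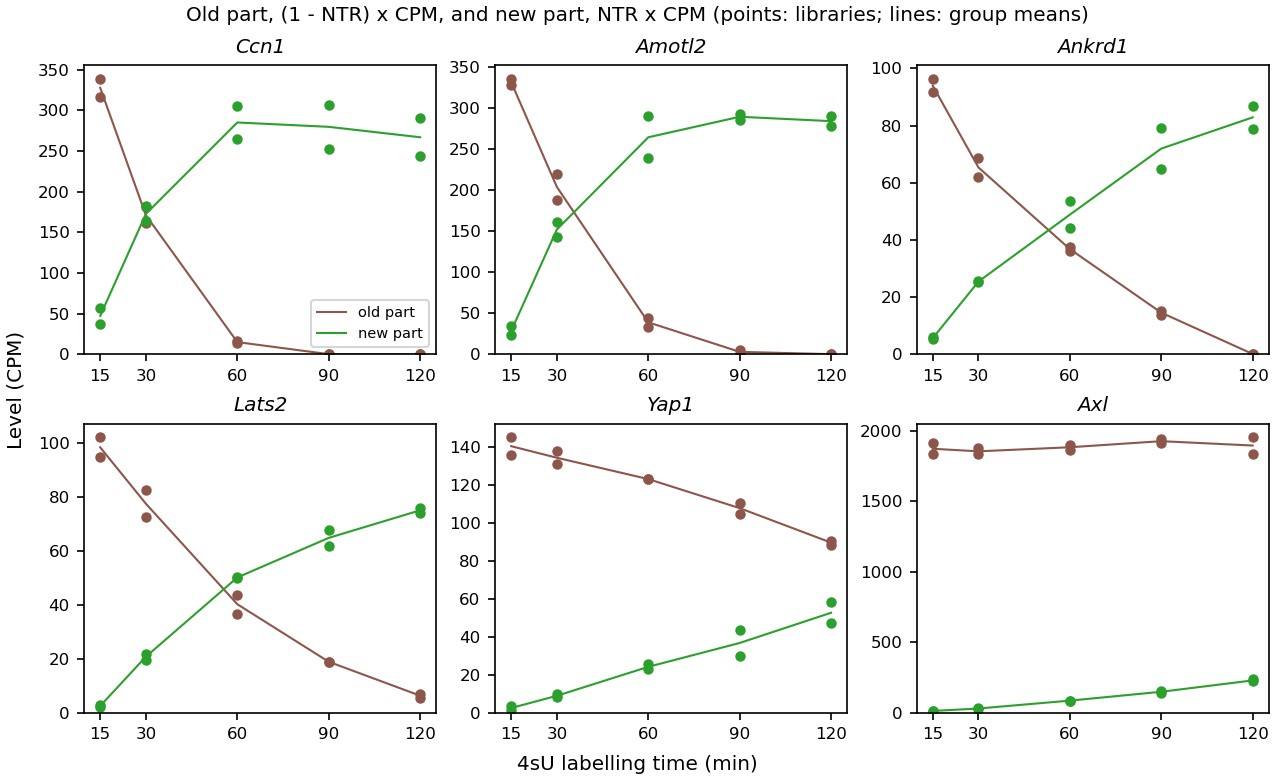
Old and new part of the level (CPM) against labelling time (min) for Ccn1, Amotl2, Ankrd1, Lats2, Yap1 and Axl, with points for libraries and lines for group means. The curves of Ccn1 met after 30 min, while the old part of Axl was 1834 and 1911 CPM after 15 min and 1953 and 1838 CPM after 120 min.

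The genes with the nearest NTR profile were found by the root mean square difference over the 10 labelled libraries, among 9065 genes. For Ccn1 they were Plk2 (1.36 percentage points), Ier5 (1.77) and Dusp5 (2.13). For Ccn2 they were Klf6 (1.35), Sgk1 (1.42) and Hyls1 (2.77). Ankrd1 was nearest to Cdkn1a (3.14), Rhob (3.57) and Nkrf (3.61), and Yap1 to Strn4 (1.02), Tmem64 (1.29) and Sqle (1.40). Between the 9 genes themselves, Ccn2 and Amotl2 differed by 2.98 percentage points, Ccn1 and Ccn2 by 4.56, Yap1 and Tead1 by 4.52, and Ccn1 and Axl by 73.9. Nearness of NTR did not go with the same course of the total level in every case, since Cdkn1a had a slope of 0.18 log2 per hour (edgeR adjusted p = 0.000941) and Ankrd1 one of -0.13.

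Total levels were compared next. With longer labelling, all 6 genes of fast turnover fell and Axl rose in the deposited counts, while Yap1 and Tead1 did not pass the test. The size of these falls reached 33.1% for Ccn2 between 15 and 120 min. After a rescaling of labelled reads for the loss that the whole table implied (described after the individual genes), of these 7 only Ccn2 and Ajuba still passed, and only in the trend over labelling time. Calls over all genes dropped too, from 2228 to 253 at 120 against 15 min.

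Ccn1 had 411 and 339 CPM without 4sU in A and B, 395 and 354 CPM after 15 min, 363 and 324 CPM after 30 min, 321 and 279 CPM after 60 min, 307 and 253 CPM after 90 min, and 290.3 and 244 CPM after 120 min. Both libraries at 120 min were below all of those at no4sU, 15 and 30 min. Ccn2 had 629 and 510.4 CPM in no4sU, 615 and 605 CPM after 15 min, 572 and 549 CPM after 30 min, 469.7 and 504 CPM after 60 min, 465 and 506 CPM after 90 min, and 412 and 405 CPM after 120 min. Its 120 min libraries were the lowest of the 12. Ankrd1 had 98.1 and 96.1 CPM in no4sU, 101.6 and 97.5 CPM after 15 min, 93.8 and 87.7 CPM after 30 min, 91.0 and 80.2 CPM after 60 min, 93.0 and 79.9 CPM after 90 min, and 86.9 and 78.9 CPM after 120 min. Its groups from 60 min on overlapped each other and lay below no4sU and 15 min.

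Axl had 1819 and 1834 CPM in no4sU, 1849.6 and 1920.0 CPM after 15 min, 1908 and 1859.9 CPM after 30 min, 1987 and 1951 CPM after 60 min, 2067 and 2083 CPM after 90 min, and 2189 and 2059.8 CPM after 120 min. The no4sU libraries were the lowest of the 12, and all libraries from 60 min on were above those up to 30 min.

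Amotl2 had 358 and 341 CPM in no4sU, 361 and 358 CPM after 15 min, 362 and 349 CPM after 30 min, 283 and 322 CPM after 60 min, 286 and 298 CPM after 90 min, and 289.8 and 277 CPM after 120 min. Its level thus stepped down between 30 and 60 min, with no overlap between the 6 libraries before and the 6 after. Ajuba had 88.1 and 80.8 CPM in no4sU, 91.0 and 87.1 CPM after 15 min, 89.1 and 74.3 CPM after 30 min, 70.4 and 72.9 CPM after 60 min, 69.4 and 66.4 CPM after 90 min, and 65.9 and 60.5 CPM after 120 min. The same split, before and after 60 min, separated its libraries without overlap. Lats2 had 91.3 and 97.4 CPM in no4sU, 105.1 and 96.6 CPM after 15 min, 102.0 and 94.5 CPM after 30 min, 93.7 and 87.0 CPM after 60 min, 86.8 and 80.6 CPM after 90 min, and 81.1 and 81.6 CPM after 120 min. Its 60 min libraries overlapped no4sU, and those at 90 and 120 min were below it.

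Yap1 had 129.8 and 144 CPM in no4sU, 139 and 147 CPM after 15 min, 139 and 148 CPM after 30 min, 149 and 146 CPM after 60 min, 148 and 141 CPM after 90 min, and 149 and 136 CPM after 120 min. Every labelled group overlapped at least 1 other, and the lowest value was in no4sU replicate A. Tead1 had 201 and 255 CPM in no4sU, 263 and 262 CPM after 15 min, 264 and 261 CPM after 30 min, 267 and 271 CPM after 60 min, 273 and 263 CPM after 90 min, and 261 and 247 CPM after 120 min. Only no4sU replicate A stood well apart.

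**Figure D3:**
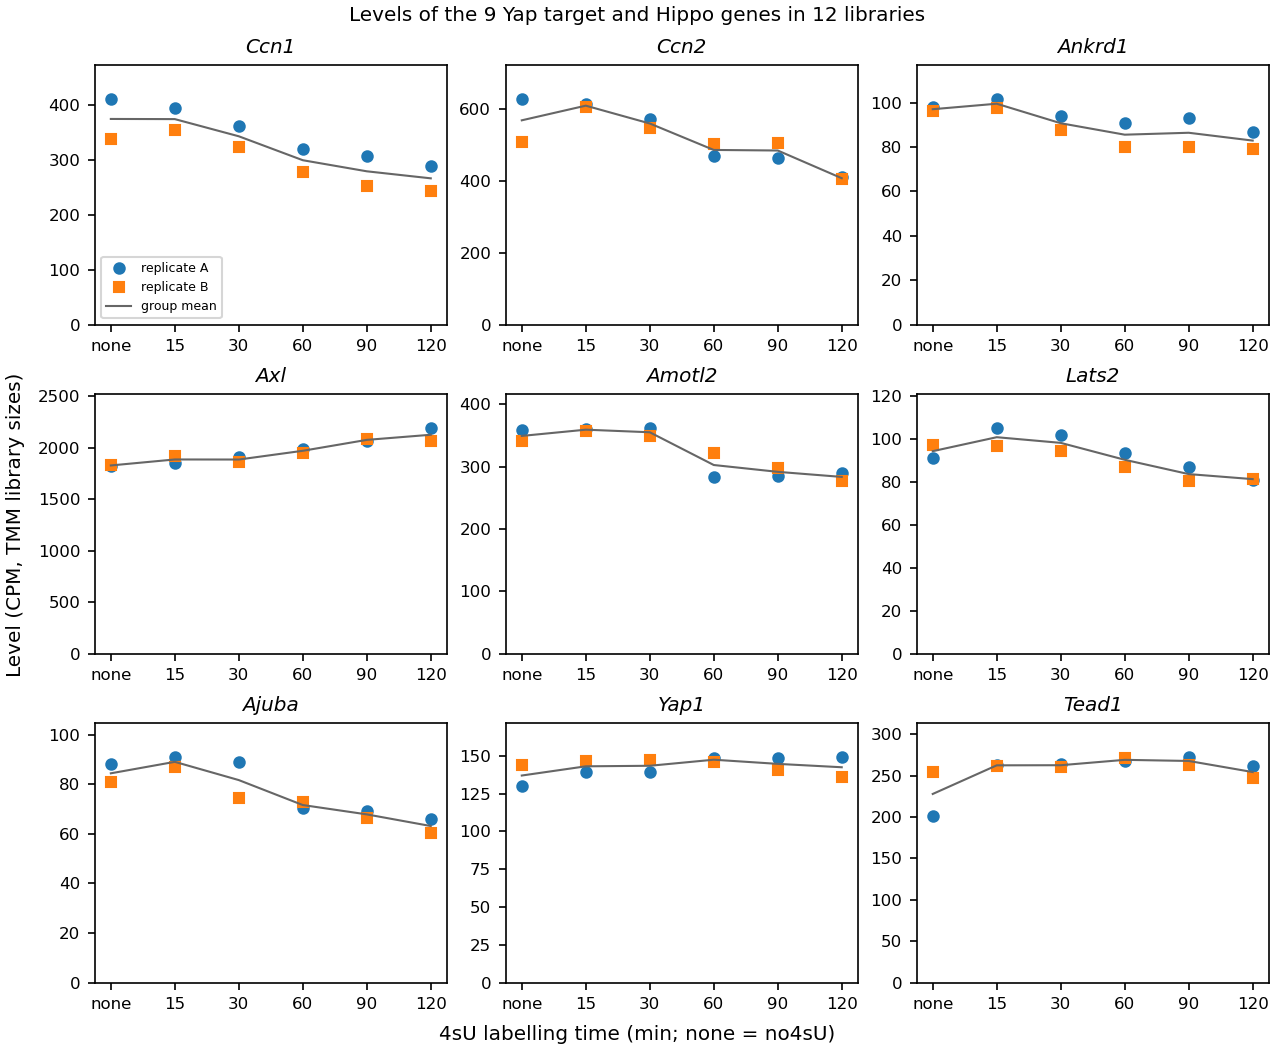
Level (CPM, from 0) against labelling time (min, none for no4sU) for the 9 genes, with points for replicates A and B and a line through the group means. Ccn2 went from 615 and 605 CPM at 15 min to 412 and 405 CPM at 120 min, and Tead1 had its lowest value, 201 CPM, in no4sU replicate A.

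Against no4sU, 0 of the 9 passed at 15 min or at 30 min, and 0 of all 11564 genes did (0% at both times), by edgeR's quasi-likelihood test with a Benjamini-Hochberg adjusted p below 0.05. At 15 and at 30 min 1 of the 9 had an unadjusted p below 0.05, with edgeR and with DESeq2 alike, and DESeq2 called 0. At 60 min 0 of the 9 passed with either tool, against 0.0173% of all genes by edgeR. The unadjusted p was below 0.05 for 6 by DESeq2 and for 7 by edgeR at 60 min, namely Ccn1 (log2 difference -0.32), Ccn2 (-0.22), Ankrd1 (-0.19), Amotl2 (-0.20), Ajuba (-0.23), Axl (0.11) and Tead1 (0.24). Without no4sU replicate B, the count of the 9 was 3 after 30 min and 5 after 60 min, and after 15 min it was 1 without either no4sU library. The background moved as well. A fit lacking no4sU replicate B called 1336 of all genes at 15 min, 1363 at 30 min and 1213 at 60 min, and one lacking replicate A called 54, 34 and 216. Ccn2 at 60 min was at -0.07 without replicate A and -0.37 without B, Ccn1 at -0.18 and -0.46, Ajuba at -0.17 and -0.30, and Tead1 at 0.08 and 0.42. At 90 min 2 of the 9 fell, against 0.943% of all genes that were lower: Amotl2 at -0.26 log2 ± 0.0595 (SE, edgeR adjusted p = 0.0321) and Ccn1 at -0.42 ± 0.101 (adjusted p = 0.0400). By DESeq2 Ccn1 did not pass at 90 min (adjusted p = 0.160) and Axl did (0.18, adjusted p = 0.0152). Ccn1 was at -0.28 without no4sU replicate A and -0.56 without B, and passed in both, and Ccn2 was at -0.08 (adjusted p = 0.316) and -0.37 (adjusted p = 6.5e-07). The 90 min count was 5 without no4sU replicate A and 6 without replicate B. It was 1 without any single library of 30 or 120 min, and 0 without any single one of 15 or 90 min. Of all genes, 109 were lower at 90 min, 799 without no4sU replicate A, 352 without no4sU replicate B, 16 when 90 min replicate A was left out and 5 when its replicate B was.

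At 120 min against no4sU 6 of the 9 passed. Of these 5 fell, against 8.78% of all genes that were lower, and Axl rose, against 5.43% that were higher. These shares stood for 1015 lower and 628 higher genes, which were 1872 and 1661 without no4sU replicate A, 866 and 1033 without no4sU replicate B, 328 and 124 without 120 min replicate A, and 332 and 134 without 120 min replicate B. With library size alone as the scaling they were 1684 and 203. Ccn1 fell by 0.49 on the log2 scale (± 0.100 SE, edgeR adjusted p = 0.00329), Ccn2 by 0.48 (± 0.0718, adjusted p = 0.000349) and Ajuba by 0.42 (± 0.0802, adjusted p = 0.00215). Amotl2 fell by 0.30 (adjusted p = 0.00262) and Lats2 by 0.22 (adjusted p = 0.0430), and Axl rose by 0.22 (adjusted p = 0.00456). Ankrd1 (-0.23, adjusted p = 0.0535), Tead1 (0.15, adjusted p = 0.166) and Yap1 (0.05, adjusted p = 0.629) did not pass. Without no4sU replicates A and B in turn, Ccn1 was at -0.35 and -0.63 and Ccn2 at -0.32 and -0.62, past the threshold each time. The value of Tead1 turned on 1 library, being 0.34 (adjusted p = 8.3e-06) without no4sU replicate B and -0.00 (adjusted p = 0.956) without replicate A. Lats2 passed in the fit without no4sU replicate A, but without any other single library its adjusted p was between 0.0550 and 0.194, and by DESeq2 it was 0.0870. Without 120 min replicate B, Ccn2 and Axl alone passed, and in a fit of the no4sU and 120 min libraries only, Ccn1, Ccn2 and Ajuba did.

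The comparison of 120 with 15 min uses no unlabelled library for its differences. Here 6 of the 9 fell, against 11.3% of all genes that were lower, and Axl rose, against 7.93% that were higher. These shares stood for 1311 lower and 917 higher genes. Leaving out 15 min replicate A or B gave 519 and 138 or 701 and 336, and leaving out 120 min replicate A or B gave 651 and 366 or 528 and 177. Higher genes were 1710 and 1748 without no4sU replicates A and B, with 1990 and 1953 lower. Library size alone gave 1867 lower and 426 higher. Ccn2 fell by 0.58 on the log2 scale (± 0.0718 SE, edgeR adjusted p = 4.5e-05), which is 33.1%. Ajuba fell by 0.50 (± 0.0803, adjusted p = 0.000431), Ccn1 by 0.49 (± 0.101, adjusted p = 0.00244), Amotl2 by 0.34 (adjusted p = 0.000783), Lats2 by 0.31 (adjusted p = 0.00439) and Ankrd1 by 0.27 (adjusted p = 0.0224). Axl rose by 0.17 (adjusted p = 0.0137), and did not pass with library size alone as the scaling (0.12, adjusted p = 0.0796). Tead1 was at -0.05 ± 0.0738 (adjusted p = 0.697) and Yap1 at -0.01 ± 0.0659 (adjusted p = 0.953). Without 15 min replicate A, Ccn2, Ajuba and Amotl2 alone passed. Ccn1 did not pass without 120 min replicate B either (adjusted p = 0.0754), nor did Ankrd1 without 15 min replicate B or 120 min replicate B (adjusted p = 0.0673 and 0.227) or Axl without 120 min replicate A (adjusted p = 0.147).

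Over the 10 labelled libraries, a slope with labelling time was fitted for 11526 genes, of which 19.5% fell and 18.3% rose. Of the 9 genes 6 fell and 1 rose. The slope of Ccn2 was -0.30 log2 per hour (± 0.0230 SE, edgeR adjusted p = 2.4e-13), that of Ccn1 -0.28 (± 0.0337, adjusted p = 1.5e-08) and that of Ajuba -0.28 (± 0.0331, adjusted p = 1.1e-08). Amotl2 had a slope of -0.22 (adjusted p = 5.2e-09), Lats2 of -0.19 (adjusted p = 1.0e-06), Ankrd1 of -0.13 (adjusted p = 0.00146) and Axl of 0.11 (adjusted p = 2.4e-06). Tead1 (-0.02 ± 0.0204, adjusted p = 0.515) and Yap1 (-0.00 ± 0.0243, adjusted p = 0.926) did not pass. These 7 calls held without any single library, and 7 of the 9 passed without both 120 min libraries, where 972 of all genes fell and 682 rose. With library size alone as the scaling, 1172 of all genes rose and 3031 fell (2111 and 2251 with TMM), and Tead1 passed as well (-0.05, adjusted p = 0.0425).

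The direction of these changes went with the NTR across the whole table. In the highest decile of genes by NTR at 120 min (907 genes, NTR 85.2% to 100%), which held Ccn1, Ccn2, Ankrd1, Amotl2, Lats2 and Ajuba, the median log2 difference between 120 and 15 min (of CPM + 1) was -0.26. Ccn2 was at -0.58, with 4.52% of this decile below it, Ccn1 at -0.49 with 10.3% below and Ajuba at -0.49 with 10.5% below. Amotl2 (-0.34, 32.1% below), Lats2 (-0.31, 39.0% below) and Ankrd1 (-0.26, 49.1% below) were nearer to the middle. In the lowest decile the median was 0.21, and Axl was at 0.17 with 33.8% of genes below it. Yap1 at -0.01 and Tead1 at -0.05 were in deciles with medians of -0.03 and 0.02. Thus, from 15 to 120 min, Ankrd1 and Axl moved about as far as the median gene of their decile. Ccn2, Ccn1 and Ajuba were near the lower end of theirs. With no4sU in place of 15 min, Ccn2 (8.93% below), Ccn1 (8.05%) and Ankrd1 (51.7%) were placed similarly. Ajuba then had 15.2% and Axl 75.2% of the decile below.

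**Figure D4:**
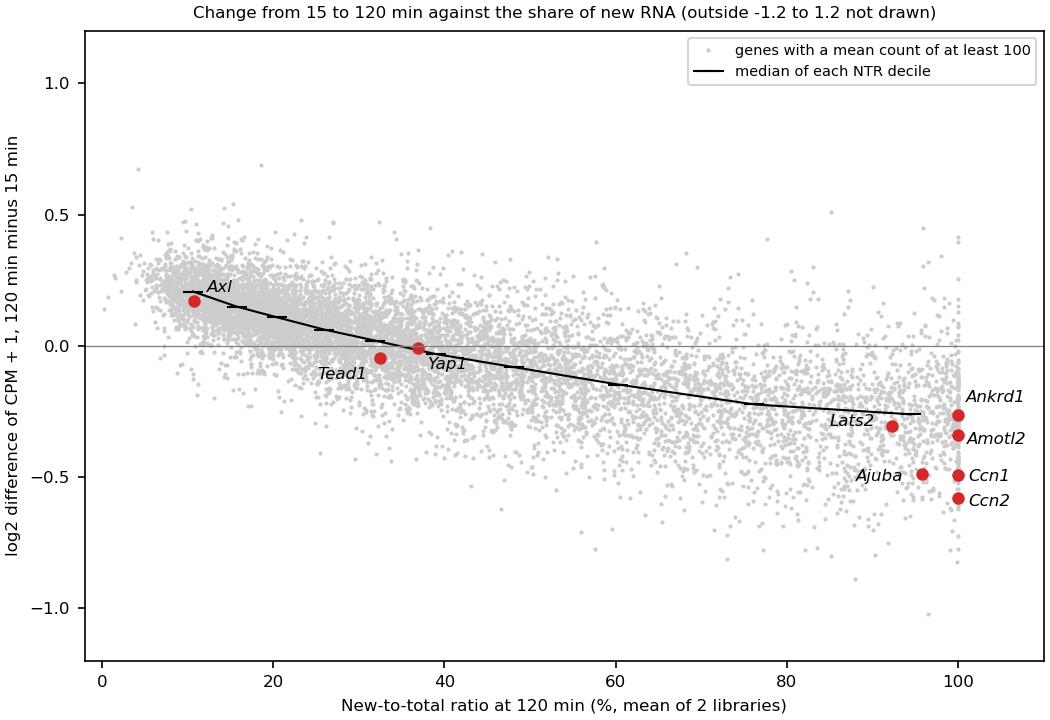
Log2 difference of CPM + 1 between 120 and 15 min against NTR (%) at 120 min, with grey points for genes whose mean count was 100 or more, a black line for the median of each decile by NTR and red points for the 9 genes. Ankrd1 (-0.26) lay level with the end of the line, and Ccn2 (-0.58) lay below it at an NTR of 100%.

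A like relation, with the change of each labelled library taken against the mean of both no4sU libraries, was used to rescale the counts. All rescaled values, also those at 120 against 15 min and in the trend, thus rest on the no4sU libraries, which differed from each other. For each library, labelled reads were multiplied up to make good the loss that would bring the rank correlation of change with NTR to 0, which was 30.5% and 32.1% in the 120 min libraries, 20.9% and 24.2% at 90 min, and 16.2% and 13.1% at 60 min. This rests on the fall of high-NTR genes as a whole, so it removes what these genes share with them, whatever its source, which was not tested. After it 0 of the 9 passed at 90 min, at 120 min against no4sU, or at 120 against 15 min (edgeR, with 1, 1 and 2 at an unadjusted p below 0.05). Calls over all genes dropped as well. They were 15, 186 and 253 of 11596 in these comparisons, against 161, 1643 and 2228 of 11564 before. At 120 against 15 min Ccn2 was at -0.27 (edgeR adjusted p = 0.0583) and Ajuba at -0.20 (adjusted p = 0.184). In the trend 2 of the 9 fell, Ccn2 at -0.11 log2 per hour (adjusted p = 0.00271) and Ajuba at -0.10 (adjusted p = 0.0337). Of all 11568 genes in the rescaled trend, 903 fell and 655 rose. Ccn1 was at -0.09 (adjusted p = 0.0715), Amotl2 at -0.02, Lats2 at -0.02, Axl at 0.02 and Ankrd1 at 0.06 (adjusted p between 0.276 and 0.660).

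The wider pathway was described with a list of 43 Hippo genes, of which 42 could be tested, 5 of them among the 9. Of the other 37, 13 fell and 3 rose in the trend, in which 19.5% of all genes fell and 18.3% rose. Their median slope was -0.02 log2 per hour, against 0.00 for all genes. Among the genes that fell were the kinases Lats1 (-0.14 ± 0.0277 SE, edgeR adjusted p = 7.3e-05), which acts beside Lats2, Stk38l (-0.21, adjusted p = 0.000120), a kinase related to Lats, and Taok1 (-0.14, adjusted p = 1.45e-05), which acts upstream of Stk3 and Stk4. Strn (-0.17, adjusted p = 1.7e-05), a scaffold of a phosphatase complex that restrains those kinases, and the casein kinase Csnk1d, which takes part in marking Yap for degradation (-0.11, adjusted p = 0.000173) fell too. Their NTR at 120 min was 82.7% for Lats1, 79.7% for Stk38l, 74.8% for Taok1, 56.4% for Csnk1d and 47.9% for Strn.

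The 3 that rose were Tead2 (0.09, edgeR adjusted p = 0.0159), a relative of Tead1, the large cadherin Fat1 (0.07, adjusted p = 0.0103) and Nf2 (0.07, adjusted p = 0.0301), the membrane scaffold merlin. With library size alone as the scaling 0 of the 37 rose, beside 1172 of all 11526 genes. The NTR of Tead2, Fat1 and Nf2 at 120 min was 21.1%, 35.6% and 22.5%. Wwtr1, which encodes Taz, was at 0.01 ± 0.0257 (adjusted p = 0.831) with an NTR of 42.4%. The upstream kinase Stk3 was at 0.02 (adjusted p = 0.680), Sav1, its adaptor, at -0.00 (adjusted p = 0.933), and Tead3 at -0.00 (adjusted p = 0.962). With the no4sU libraries in the fit at time 0, 7 of the 37 were lower and 3 higher, beside 1737 and 1538 of all 11564 genes. Without the 120 min libraries 4 were lower and 2 higher, beside 972 and 682 of all 11458 genes. After rescaling of the labelled part 3 were lower and 1 higher, beside 903 and 655 of all 11568 genes.

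A list of 22 Yap and Taz targets, mouse counterparts of a human target signature, held 20 genes that could be tested, 6 of them among the 9. Of the other 14, 7 fell and 1 rose in the trend, beside 19.5% and 18.3% of all genes, and their median slope was -0.07 log2 per hour, against 0.00 for all genes. F3, the coagulation initiator tissue factor, had 42.9 and 37.1 CPM at 15 min and 25.5 and 28.3 CPM at 120 min, with a slope of -0.38 ± 0.0477 (SE, edgeR adjusted p = 4.9e-08). Gadd45a, a growth arrest gene, was at -0.37 (adjusted p = 0.000216), the kinase Nuak2 at -0.23 (adjusted p = 0.00297), the transcription factor Foxf2 at -0.19 (adjusted p = 3.4e-05) and the Arf regulator Asap1 at -0.15 (adjusted p = 1.2e-06). Their NTR at 120 min was 96.8% for F3, 100% for Gadd45a and Nuak2, 93.6% for Foxf2 and 55.6% for Asap1. Myof, which encodes the membrane repair protein myoferlin, rose by 0.09 (adjusted p = 3.3e-05) and, like Axl, had a low NTR (15.5%). After rescaling of the labelled part 2 of the 14 fell and 0 rose, beside 903 and 655 of all 11568 genes. Without the 120 min libraries 4 of the 14 fell and 1 rose, beside 972 and 682 of all 11458 genes.

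**Figure D5:**
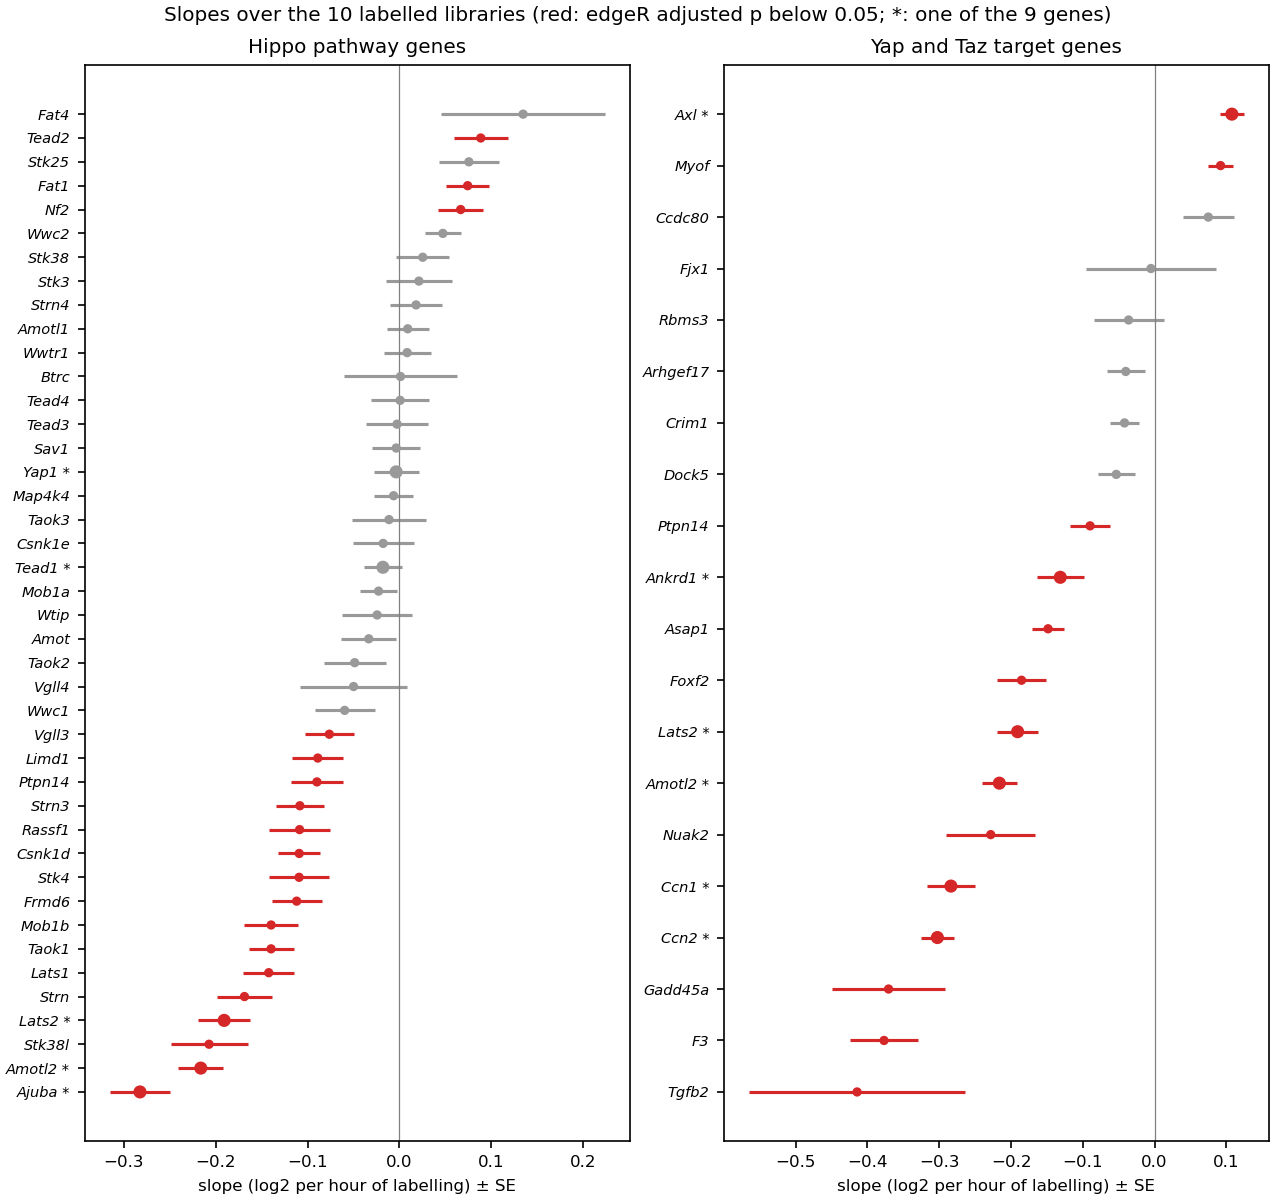
Slope (log2 per hour of labelling) with its SE for the tested genes of the Hippo pathway list and of the Yap and Taz target list, in red where the edgeR adjusted p was below 0.05, with an asterisk at the 9 genes. Ajuba had the lowest slope of the pathway list (-0.28), and Axl the highest of the target list (0.11).

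In GENCODE M21 (GRCm38) the 9 are protein-coding genes. Ccn1 (ENSMUSG00000028195) lies at chr3:145646976-145649981 on the minus strand, Ccn2 (ENSMUSG00000019997) at chr10:24595442-24598683 on the plus strand, Ankrd1 (ENSMUSG00000024803) at chr19:36111961-36120099 on the minus strand and Axl (ENSMUSG00000002602) at chr7:25757273-25788705 on the minus strand. Amotl2 (ENSMUSG00000032531) lies at chr9:102716672-102733418 on the plus strand, Lats2 (ENSMUSG00000021959) at chr14:57689662-57758388 on the minus strand and Ajuba (ENSMUSG00000022178) at chr14:54567472-54577558 on the minus strand. Yap1 (ENSMUSG00000053110) lies at chr9:7931999-8004596 on the minus strand and Tead1 (ENSMUSG00000055320) at chr7:112679318-112906807 on the plus strand. Non-coding genes on the other strand overlap Ccn2, Lats2, Yap1 and Tead1, and the microRNA gene Gm44462 on the same strand also overlaps Tead1. Because the sources used here do not give the use of strand in counting, reads of these overlapping genes cannot be told apart.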

How the data were processed

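SLAM-seq was done on 12 libraries in 6 groups of 2, taken from the sample titles. The authors deposited estimated counts per gene and library, unscaled, of which 20.4% were not whole (tolerance 1e-06) and which were rounded here. The NTR was deposited as a fraction, with posterior maximum, mean and 0.05 and 0.95 quantiles (a 90% interval) per the file headers, and a length in bases per gene. The submitters' processing notes list cutadapt, Bowtie2 2.3.0 and STAR 2.7.10b. The sources used here do not give their roles, the counting tool, build, annotation or strand use. Of the per-sample columns 0 matched no sample.

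The count test was edgeR 4.0.16 under R 4.3.3 (filterByExpr, TMM factors 0.970 to 1.02, quasi-likelihood fit of all 12 libraries, Benjamini-Hochberg over all genes tested, common coefficient of variation 4.44%), and for the slope over the 10 labelled libraries with time in hours. With 2 against 2 libraries an exact permutation p cannot go below 0.333, so no such test was used. The script was tested on simulated data. DESeq2 1.42.0, RLE and library-size scaling, no filter, fewer or more libraries, the replicate letter as a block, each library left out and the rescaled labelled part were alternatives. The NTR used was the posterior maximum. Half-lives needed an NTR between 0.01 and 0.99. The deciles used log2 of CPM plus a pseudocount of 1, which understates changes of low genes, and genes whose mean count was 100 or more. Single-library errors cover what the NTR model covers. Depth was 9917026 to 13739380 reads. Python 3.11.15 with numpy 2.4.6, pandas 2.3.3 and matplotlib 3.10.9 was used.

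All 9 genes are named. From the lists, up to 5 genes per direction with the smallest adjusted p in the trend are named (Wwtr1, Stk3, Sav1 and Tead3 were added for their roles after their values had been seen), and for 4 genes the 3 nearest by NTR. The genes, lists, tests and alternatives were chosen with earlier results of these data known, and the target list was written from memory.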

Additional observations from a re-analysis of the deposited data

How the results depend on the processing

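The number of the 9 genes past the threshold was 0, 0, 0, 2 and 6 at 15, 30, 60, 90 and 120 min against no4sU, 7 at 120 against 15 min and 7 in the trend. Of all genes 0, 0, 2, 161, 1643, 2228 and 4362 passed, in the same order. With the labelled part of the counts scaled up the number of the 9 was 0 at 90 min, 0 at 120 min against either reference and 2 in the trend. Of all genes 15 then passed at 90 min, 186 at 120 min against no4sU, 253 at 120 against 15 min and 1558 in the trend. Under this setting 4 differences that had passed before rescaling turned sign, none still past the threshold. They were Amotl2 (0.0111) and Lats2 (0.0609) at 120 min against no4sU, and Ankrd1 at 120 against 15 min (0.0459) and in the trend (0.0584). Some differences that had not passed turned sign as well, among them Ankrd1 at 120 min against no4sU (-0.23 before and 0.08 after rescaling). A fit of only the groups compared called 0 of the 9 and 2 of all genes at 90 min, and 3 and 171 at 120 min against no4sU. Without a filter on low counts, 3 of the 9 and 95 of all genes passed at 60 min, and 6 and 438 at 90 min. With library size alone the number of the 9 was 4 at 90 min, beside 284 of all genes. Leaving out each library in turn gave 0 to 1 at 15 min, 0 to 3 at 30 min, 0 to 5 at 60 min, 0 to 6 at 90 min and 2 to 7 at 120 min against no4sU, 3 to 7 at 120 against 15 min, and 7 in every case in the trend. Where a group is left with 1 library, it is assumed to vary like the others. The counts over all genes shifted with the setting as well, and the causes of these shifts were not tested. Whether the letters A and B mark pairs is not stated. Over 15 pairs of groups, deviations of same-lettered libraries across all tested genes had correlations of -0.0721 to 0.0898. For Ccn1 and Ankrd1, A was above B in all 6 groups, which held for none of the other genes. With the replicate block 1 of the 9 passed at 60 min, 3 at 90 min, 7 at 120 min against no4sU, 7 at 120 against 15 min and 7 in the trend. Of all genes 4, 183, 1737, 2315 and 4447 passed, in the same order. A tally for single genes covered 60, 90 and 120 min against no4sU, 120 against 15 min and the trend, not 15 or 30 min. In it 748 of the values from the alternatives kept the call or its absence, whatever the sign of uncalled differences. Another 61 lost the call, 33 gained it and 4 that had passed turned sign. With 2 libraries a group, differences smaller than these spreads were not detectable.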
